A study of Equus caballus with 24 samples.

Results

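The genes described here were those whose level in IgE-binding monocytes differed between horses and was kept between a winter and a summer sample of the same horse. They were selected on measured values, 65 of the 10639 genes with a mean of at least 1 CPM (counts scaled to library size), out of 30371 genes listed. For each gene the level was log2(CPM + 4), and Pearson r between the phases had to reach 0.9 over the 12 horses. Of the 67 genes that reached it, 1 was left out because its level moved in 1 direction in all 12 horses and 1 because its number was among 40 listed identifiers. A gene whose 7 allergic horses were all above or all below the 5 healthy horses in the winter was also to be left out, and 0 of the 67 were of that kind. The rule allowed up to 200 genes, ordered by the spread between horses, so with 65 the spread removed none.

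The study purified IgE-binding monocytes from the blood of Icelandic horses to ask how these cells differ with allergy when allergen is absent and when it is present. Cells were sorted as CD14low/IgE+/MHCIIhigh/CD16-/CD163-, frozen, and sequenced after poly-A selection as bulk RNA, with no pooling of animals. Allergic horses (n = 7, codes A1 to A7) had seasonal hypersensitivity to the bites of Culicoides midges, and healthy horses (n = 5, codes H1, H2, H4, H6 and H7) shared the same exposure without signs. Each horse gave 1 library in the Remission Phase (January and February, no midges; also written remission) and 1 in the Clinical Phase (August and September), which makes 24 libraries. The horses were adult mares apart from a gelding in the allergic group, and the allergic mares had a higher median age than the healthy mares. The horse code stood in the header of each count table and paired the phases.

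Monocytes are circulating white blood cells that take up particles, present antigen on MHC class II and can become macrophages or dendritic cells in tissue. A subset carries IgE on its surface through the high-affinity IgE receptor, and that antibody gives the cell a means to detect an allergen. In outbred animals the transcript level of a gene commonly differs between individuals.

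The identifiers in the tables carried no gene symbols, and 0 rows of the reference table at hand held them, so members are given by identifier and their roles and neighbours are not described. For the same reason the sorted cell type could not be checked against its marker genes. In bulk RNA, fewer cells of a kind and less RNA per cell cannot be told apart.

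Total counts ran from 17558184 to 40404429 in the 12 Remission Phase libraries and from 14493071 to 24832163 in the 12 Clinical Phase libraries. A count of 3, used as the floor, was worth 0.0723 to 0.235 CPM, and such floors cover counting error only. The Remission Phase library of A6 stood apart from the rest: it had the lowest total of its phase, 11802 genes with a count, and a TMM factor of 0.728, against factors of 0.908 to 1.11 in the other 23 libraries. Without A6, 98 genes reached an r of 0.9, and 55 of the 65 members were among the genes that did.

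Over all 10639 genes, the level in the Remission Phase said little about the level of the same horse in the Clinical Phase. The median r was 0.114, and the middle 50% of genes lay between -0.165 and 0.38. At 0.5 or higher stood 15.7% of genes, at 0.8 or higher 2.18%, and at 0.9 or higher 0.63%. The 67 genes at 0.9 were 34 by rank correlation (Spearman), which kept 23 of the 65 members there, and 160 with no minimum of the mean CPM. These r values chose the members and are given as a description, with no test. The points of each r share the horses and the depth of their libraries.

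**Figure D1:**
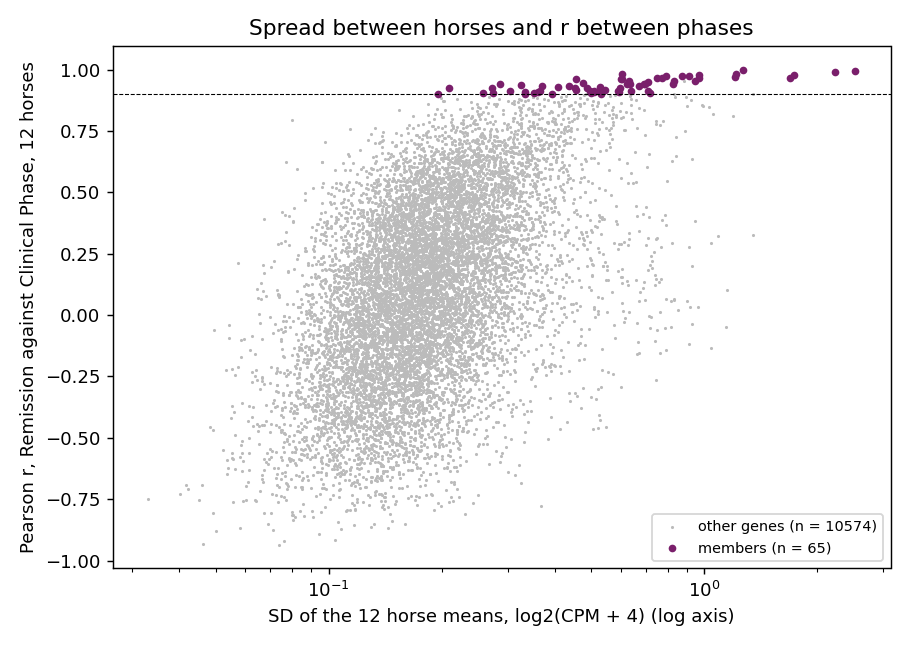
Each point is 1 of the 10639 genes, with the SD of its 12 horse means of log2(CPM + 4) on a log axis and its Pearson r between the phases on the other axis, members in purple. The members lie above the dashed line at 0.9, from an SD of 0.196 to 2.53.

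Among the members r ran from 0.9 to 0.999 with a median of 0.932, and 21 members were at 0.95 or higher. The gene last inside the threshold had an r of 0.9003 and an SD of 0.196, and the first outside, among genes not listed for removal, had 0.8997 and 0.193. The SD of the horse means had a median of 0.59 log2 units in the members and 0.18 in all genes. The highest and the lowest horse mean of a member were a median of 1.77 log2 units apart (range 0.71 to 5.59), against 0.61 over all genes. The spread within a horse, between its 2 libraries, had a median SD of 0.16 in the members and 0.23 in all genes.

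The members were thus more spread than the usual gene, but they were not simply the most spread genes. Of the 65 genes with the largest SD of the horse means, 16 were members. The median member ranked 168 by SD and the last ranked 4259, where the spread was close to that of the median gene. The word variable therefore fitted the members at the head of the order better than those at its end. The mean level of the members ran from 1.08 to 3760 CPM with a median of 22.6, against a median of 22.5 over all genes.

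In most members the horses could be split at 1 or more points that no library crossed. A level step was counted where every library of the horses above a point was higher than every library of the horses below it. A step could part off a single horse. At least 1 step was present in 64 of the 65 members, and in 15.8% of all genes. At least 2 steps were present in 54 members and at least 3 in 35, against 347 and 84 of the 10639 genes. A step with at least 2 horses on each side was present in 59 members and 556 genes. These steps follow from the values that the rule used, so they describe the members and nothing was tested on them.

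**Figure D2:**
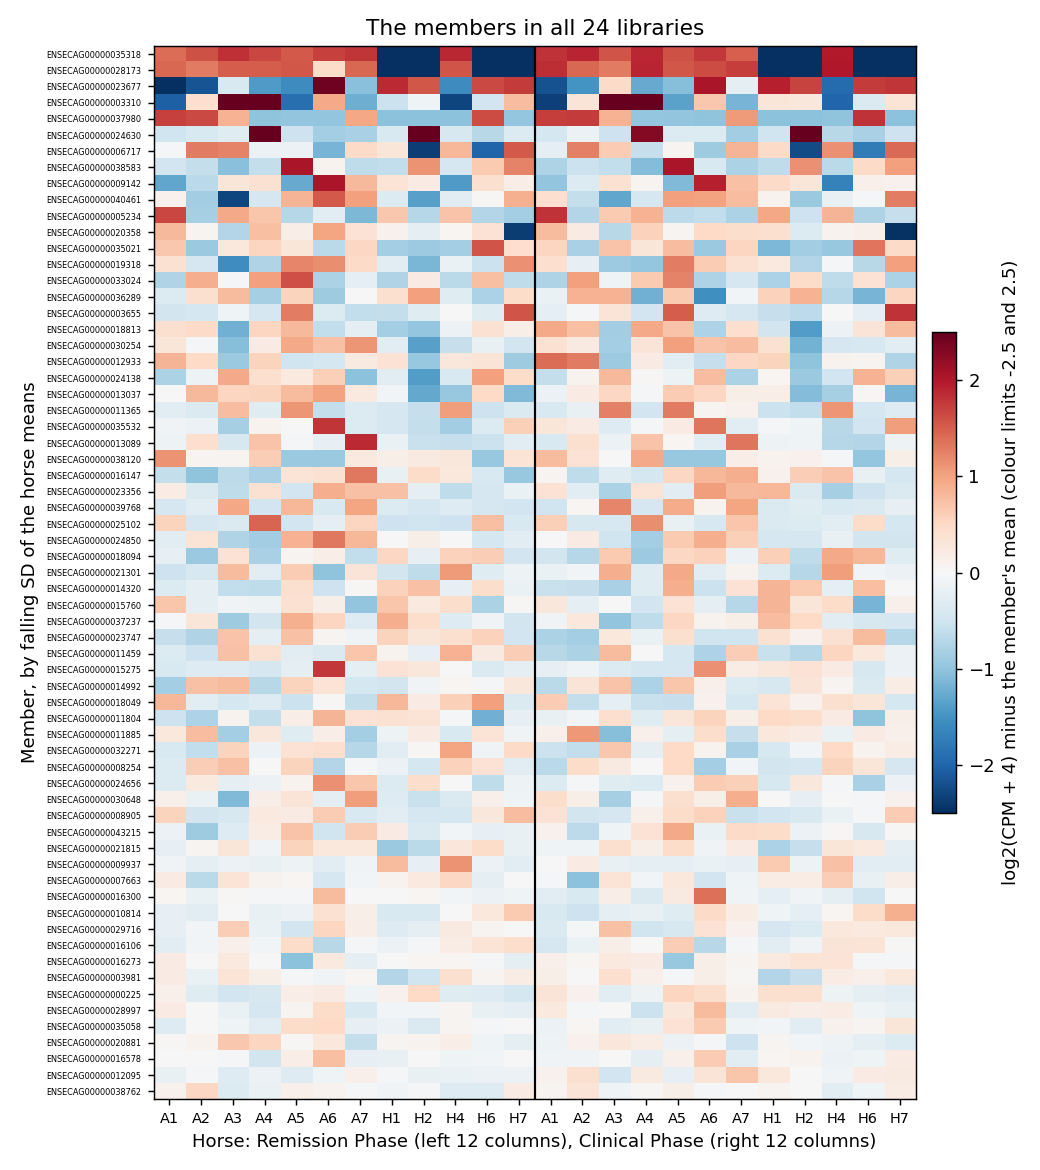
Each line of cells is 1 of the 65 members and each column 1 of the 24 libraries, the Remission Phase on the left and the Clinical Phase on the right in the same order of horses. Colour is log2(CPM + 4) minus the member's mean, and the colour pattern of the left 12 columns returns in the right 12.

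The horse means of each member were also sorted and the widest gap between neighbours found. In 16 members that gap set 1 horse above the others, in 10 it set 1 horse below, and in 39 it left at least 2 horses on both sides. The shares were 24.6%, 15.4% and 60% of members, beside 30.9%, 29% and 40.1% of all genes. The widest gap took a median of 31.7% of a member's whole range, and up to 87.3%, beside a median of 29.9% and the same highest value over all genes.

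The 2 members with the largest SD of the horse means fell into a high and a low level with nothing between. In the Remission Phase ENSECAG00000035318 stood at 5.18 CPM in H1, 6.19 in H2, 447 in H4, 5.61 in H6 and 5.9 in H7, and the allergic horses ran from 316 to 425 (median 385). In the Clinical Phase the healthy horses stood at 6.23, 9.43, 477, 11.5 and 10.7 CPM in the same order, and the allergic horses ran from 339 to 450 with a median of 410. H1, H2, H6 and H7 were low in both phases, while H4 was with the 7 allergic horses and was the highest of them all. The low level was above the floor, since those libraries held 124 to 229 counts. The widest gap between horse means was 4.87 log2 units.

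ENSECAG00000028173 set the same horses apart. Its level in the Remission Phase was 1.15 CPM in H1, 1.03 in H2, 128 in H4, 1.58 in H6 and 1.18 in H7, with the allergic horses from 56.4 to 125 and a median of 115. In the Clinical Phase H1, H2, H6 and H7 were at 1.41, 1.65, 2.01 and 1.59 CPM, H4 was at 172, and the allergic horses ran from 104 to 162 with a median of 133. The groups overlapped in both phases through H4 alone, which was above every allergic horse. A6 was the lowest allergic horse in the Remission Phase, at 56.4 CPM in the library that stood apart, and at 133 CPM in the Clinical Phase it was at the group median. Over the 12 horses these 2 members had the largest allergic minus healthy differences among the members in the Remission Phase, 4.18 and 3.46 log2 units, and in the Clinical Phase the differences were 3.87 and 3.60.

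**Figure D3:**
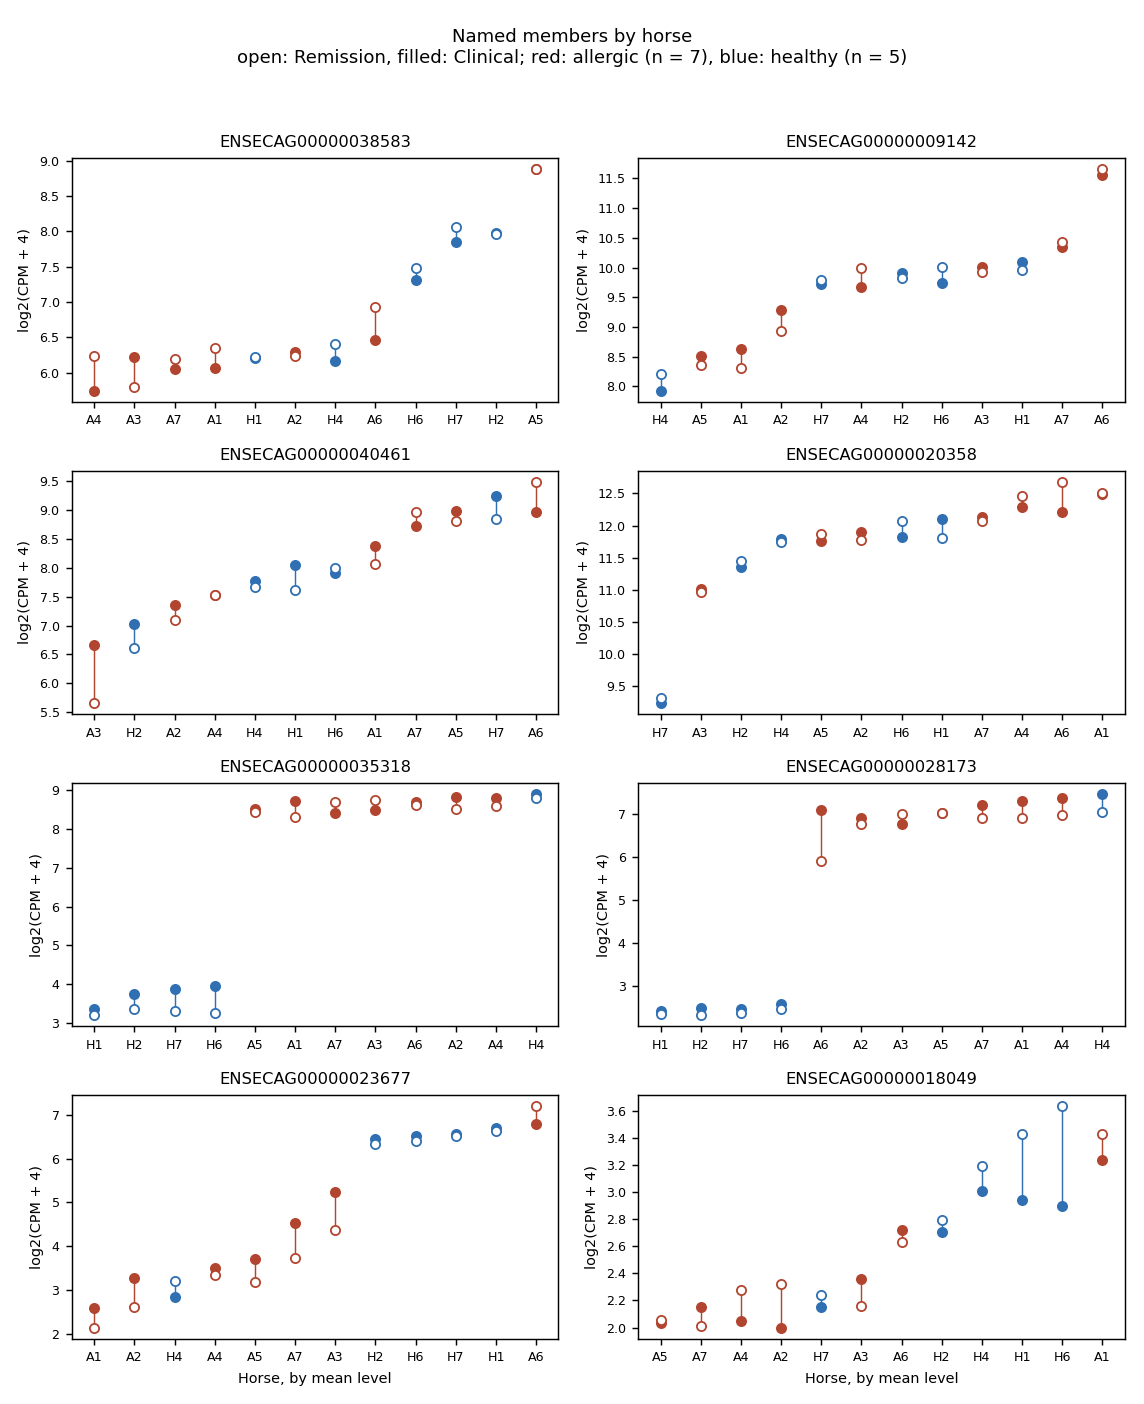
Each panel is 1 of the 8 members named by rule, with the 12 horses ordered by mean level and log2(CPM + 4) on the vertical axis; open points are Remission Phase and filled points Clinical Phase, red allergic (n = 7) and blue healthy (n = 5). H1, H2, H6 and H7 lie far below the other horses for ENSECAG00000035318 and ENSECAG00000028173, and A5 above all others for ENSECAG00000038583.

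At the other end of the group difference stood ENSECAG00000023677. In the Remission Phase it was at 95.2 CPM in H1, 75.9 in H2, 5.16 in H4, 80.9 in H6 and 87.8 in H7, and from 0.419 to 142 in the allergic horses, median 6.22. In the Clinical Phase the healthy horses were at 99.8, 83.2, 3.16, 86.7 and 90.3 CPM, and the allergic horses ran from 2 to 107 with a median of 8.98. The groups overlapped through A6, the highest of all 12 horses in both phases, and H4, which was as low as most allergic horses. The widest gap set these 5 horses, A6, H1, H2, H6 and H7, above the other 7. Below it the levels were graded, and 6 steps separated the horses in all. The allergic minus healthy difference was -2.02 log2 units in remission and -1.58 in the Clinical Phase.

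ENSECAG00000018049 was near the floor in several horses. The healthy horses had 6.78, 2.95, 5.16, 8.4 and 0.721 CPM in the Remission Phase, in the order H1, H2, H4, H6 and H7, and 3.67, 2.52, 4.05, 3.45 and 0.445 in the Clinical Phase. The allergic horses ran from 0.0353 to 6.79 CPM with a median of 0.836, and from 0 to 5.45 with a median of 0.447. A1 was high in both phases and H7 low, so the groups overlapped. The allergic minus healthy differences of -0.65 and -0.38 log2 units are on a scale that compresses levels this low, and with a pseudocount of 1 the Clinical Phase difference was -0.89.

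Among members that set a single horse apart, ENSECAG00000038583 and ENSECAG00000009142 had the largest SD of the horse means with 1 horse above, 0.97 in both. For the former, A5 was at 468 CPM in remission and 467 in the Clinical Phase, while the other allergic horses were between 51.3 and 118 and between 49.6 and 84 (medians of all 7, 71.4 and 70.8). The healthy horses were at 70.8, 245, 80.6, 175 and 264 CPM in remission and at 69.8, 248, 67.8, 155 and 228 in the Clinical Phase. H2, H6 and H7 thus formed a middle level between A5 and the other 8 horses. Without A5 its r was 0.943.

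ENSECAG00000009142 was highest in A6, at 3220 CPM in remission and 3000 in the Clinical Phase. The lowest and the median allergic horse were at 315 and 969 CPM in remission and at 359 and 816 in the Clinical Phase. Healthy horses stood at 986, 908, 292, 1030 and 883 CPM and, in the Clinical Phase, at 1080, 960, 240, 850 and 842. H4 was the lowest of the 12 horses in both phases, and A1 and A5 were the next lowest. The level of A6 was slightly lower in its Clinical Phase library than in the Remission Phase library that stood apart, and A6 was the highest horse in both.

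With 1 horse below, ENSECAG00000040461 had the largest SD of the horse means (0.95) and ENSECAG00000020358 the next (0.88), with ranges of 3.07 and 3.22 log2 units. For the former, A3 was at 46.6 CPM in remission and 97.6 in the Clinical Phase, the lowest of the 12 horses, and the allergic medians were 263 and 327 with highest values of 717 and 506. The healthy horses were at 193, 93.6, 200, 251 and 455 CPM and then at 262, 126, 214, 237 and 602. The levels rose from A3 through H2 and A2 up to A5, A6, A7 and H7, and the groups overlapped over almost the whole range. The widest gap between horse means, 0.653 log2 units, lay between A3 and H2. It was not a level step, since A3 in the Clinical Phase was above H2 in remission.

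ENSECAG00000020358 was at 635 CPM in H7 in remission and at 599 in the Clinical Phase. The other healthy horses, H1, H2, H4 and H6, had 3570, 2800, 3430 and 4280 CPM, and then 4400, 2620, 3540 and 3630. The allergic horses ran from 1990 to 6570 CPM with a median of 4280, and from 2060 to 5730 with a median of 4510. H7 was far below all others, and A3 was the next lowest horse in both phases. Without the 2 horses farthest from the Remission Phase median, r was 0.836 in place of 0.975.

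Members from here on other than those above were chosen after their values were seen, to show the kinds of pattern among the 65. In 6 members at least 1 horse was at 3 counts or fewer in both of its libraries. In each of these at least 1 other horse was at 1 CPM or more in both, with no such count over all genes. ENSECAG00000037980 was the plainest of them. A1, A2 and H6 were at 22.6, 21.6 and 21.2 CPM in remission and at 23, 23.2 and 24.6 in the Clinical Phase, and A3 and A7 were at 10.9 and 12 and then at 10.9 and 13.1. The other 7 horses were at 0.17 CPM or less in both phases. H1 and H2 had 0 counts in both libraries, and none of the 7 passed 6 counts in a library, so the gene was not detectable above the floor in most of these libraries. The groups overlapped, since A1, A2, A3, A7 and H6 were the horses with signal.

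ENSECAG00000024630 was high in A4, at 42.1 and 32.7 CPM, and in H2, at 47.6 and 43.2 CPM, in the Remission and the Clinical Phase. The remaining 10 horses did not pass 2.8 CPM in either phase. A single allergic and a single healthy horse thus carried nearly all of the signal, and the others were low but mostly above the floor. Its r was 0.982, and 0.317 without the 2 horses farthest from the Remission Phase median.

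**Figure D4:**
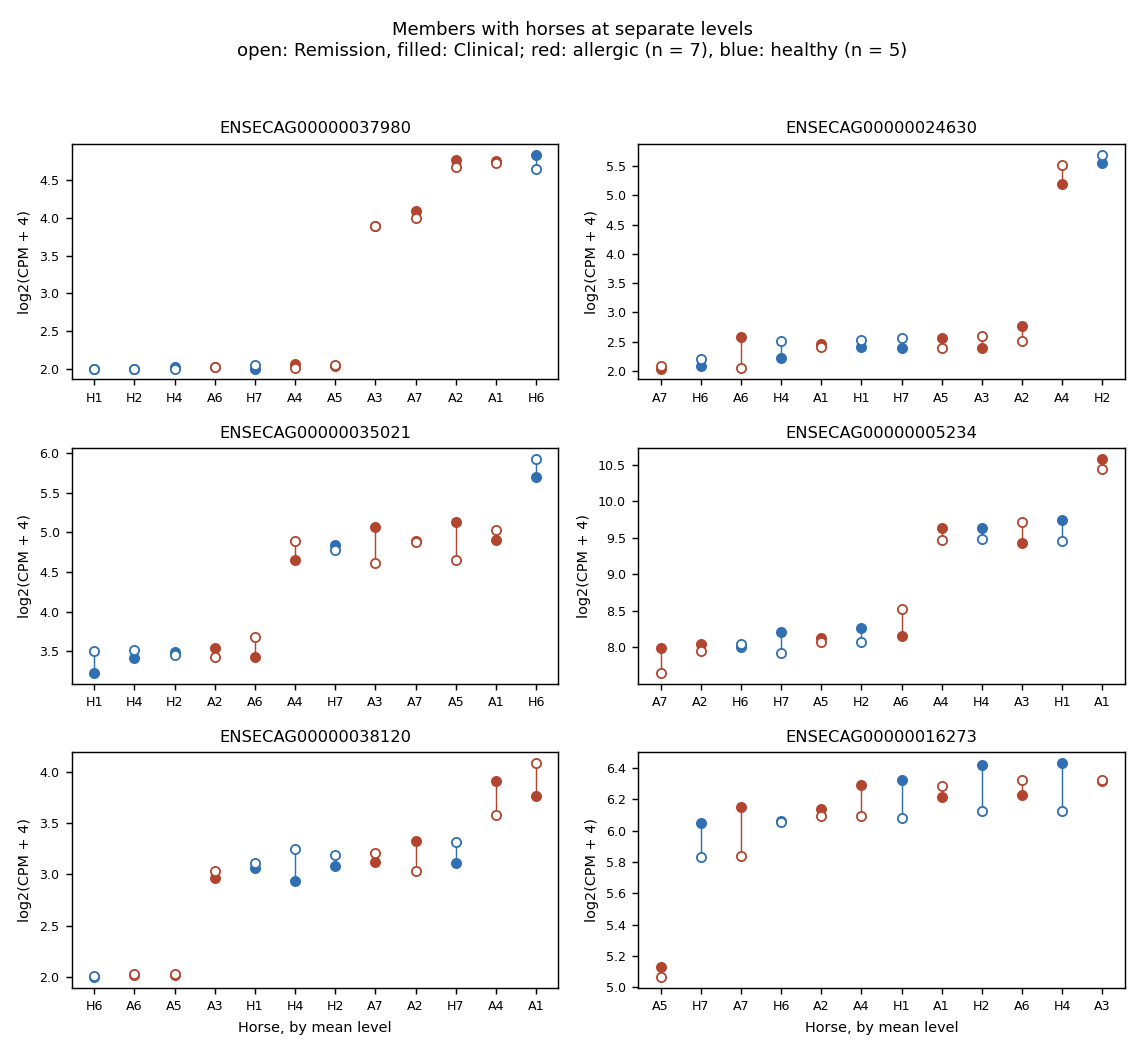
Each panel is a member chosen after its values were seen, with the 12 horses ordered by mean level and log2(CPM + 4) on the vertical axis; open points are Remission Phase and filled points Clinical Phase, red allergic (n = 7) and blue healthy (n = 5). ENSECAG00000035021, ENSECAG00000005234 and ENSECAG00000038120 show 3 levels, and ENSECAG00000016273 shows A5 alone below the rest.

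Other members had 3 levels. For ENSECAG00000035021 H6 was at 56.8 CPM in remission and 47.8 in the Clinical Phase. A1, A3, A4, A5, A7 and H7 were between 20.6 and 28.6 CPM and between 21.2 and 31.2, and A2, A6, H1, H2 and H4 were between 6.77 and 8.84 and between 5.38 and 7.65. No horse changed level between the phases, and each level but the highest held allergic and healthy horses.

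ENSECAG00000005234 was at 1390 and 1520 CPM in A1. A3, A4, H1 and H4 were between 693 and 833 CPM in remission and between 686 and 853 in the Clinical Phase, and the other 7 horses were between 196 and 362 and between 250 and 302. The order of the levels was again the same in both phases. The low level held A2, A5, A6, A7, H2, H6 and H7.

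ENSECAG00000038120 combined 3 levels with a lowest level at the floor. A5, A6 and H6 had 0 to 2 counts in each library. A1 was at 12.9 and 9.53 CPM and A4 at 7.92 and 11, while the 7 others were between 4.16 and 5.95 CPM in remission and between 3.64 and 6.01 in the Clinical Phase. For ENSECAG00000037980 the horses at 3 counts or fewer in both libraries were A5, A6, H1, H2 and H4, so A5 and A6 were at the floor for both genes, and H6 was at the floor for the former and among the high horses for the latter.

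Other members had more steps. ENSECAG00000003310, with 5 steps, ran from 4.33 CPM in H4 to 290 in A4 in remission and from 4.09 in A1 to 464 in A3 in the Clinical Phase. A3 and A4 were the highest and A1, A5 and H4 the lowest in both phases. Its range of horse means, 5.22 log2 units, was close to the 5.59 of ENSECAG00000035318.

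In many members r depended in part on a single horse, and in 2 it fell under 0.5 without that horse. For ENSECAG00000016273 A5 was at 29.5 and 31 CPM, and the other 11 horses were between 52.9 and 76.1 in remission and between 62.3 and 82.2 in the Clinical Phase. Its r was 0.901 over the 12 horses and 0.46 without A5. ENSECAG00000016300, with A6 above the others, had 0.912 and 0.4. When each horse was left out in turn, 32 members stayed at 0.9 or higher whichever horse was left out. At 0.8 or higher 62 members stayed, and at 0.5 or higher 63. Without the 2 horses farthest from the Remission Phase median, 27 members stayed at 0.9 or higher and 4 were under 0.5, the lowest of them ENSECAG00000009937, at -0.13 in place of 0.902.

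The horse means of the members were also compared in pairs, with no such comparison over all genes. Of the 2080 pairs of members, 3 had an r of 0.9 or higher across the 12 horse means and 0 had an r of -0.9 or lower, and the median size of r was 0.239. The pairs were ENSECAG00000035318 with ENSECAG00000028173, ENSECAG00000040461 with ENSECAG00000019318, and ENSECAG00000011365 with ENSECAG00000021301. In the last pair A3, A5 and H4 were the 3 highest horses for both genes. ENSECAG00000011365 was at 6.41, 9.25 and 8.57 CPM in these horses in remission and at 1.12 or less in the other 9, and in the Clinical Phase at 10.6, 11.1 and 9.18 against 2.63 or less. ENSECAG00000021301 was at 156, 139 and 189 CPM in the same horses and at 42 to 112 in the other 9, and in the Clinical Phase at 169, 174 and 187 against 52.7 to 94.2. Whether paired members lie side by side in the genome was not tested.

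The horses at the ends of the range differed from member to member. A6 had the highest mean in 14 members, A5 in 9, A3 and H4 in 8 each, A1 in 5, A7, H6 and H7 in 4 each, H1 and H2 in 3 each, A2 in 2 and A4 in 1. H2 had the lowest mean in 9 members, A3 and H1 in 8 each, and every other horse in 2 to 6. Over all genes A6 was the highest horse in 25.5% and the lowest in 25.9%, while among the members it was the highest in 21.5% and the lowest in 6.15%. The same horse was the highest in both phases in 45 members, against 12.2% of all genes, and the lowest in both in 37, against 13.8%, which follows from the choice of members by r. The part of the A6 Remission Phase library in these counts was not tested.

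**Figure D5:**
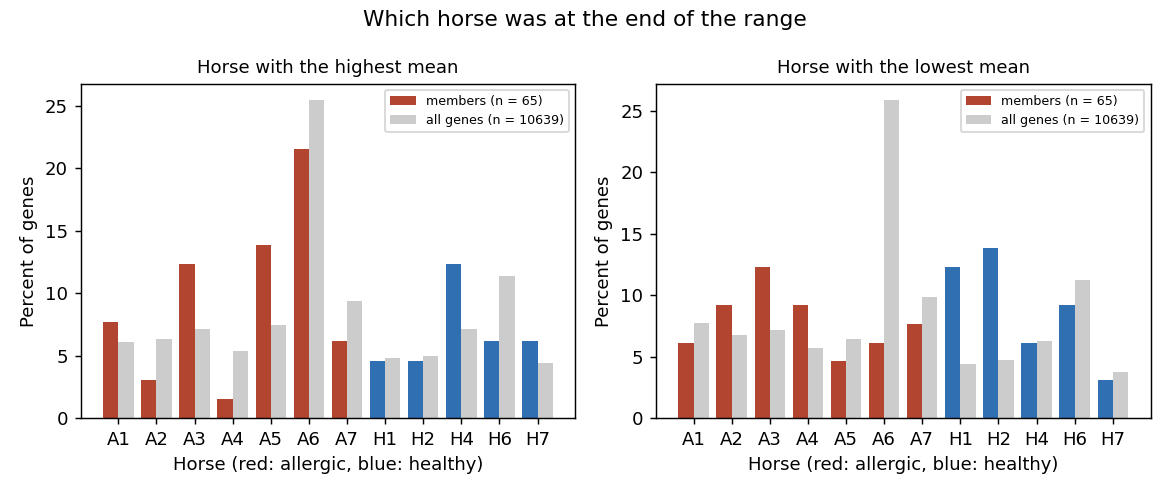
Bars give the percent of genes in which each horse had the highest (left) or the lowest (right) of the 12 horse means, coloured for the 65 members and grey for all 10639 genes. A6 is the highest horse in 21.5% of members and 25.5% of all genes, and the lowest in 6.15% and 25.9%.

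Allergy status took up little of the spread between horses in most members. The groups accounted for a median of 5.68% of the squared deviations of the horse means in the members and 7.56% in all genes, with a highest member value of 67.2%, for ENSECAG00000035318. In the Clinical Phase 42 of the 65 members (64.6%) had a higher mean in the allergic horses, as had 51.6% of all genes. The size of the difference had a median of 0.26 log2 units in the members and 0.08 in all genes, and the members had been chosen for levels that repeat between phases. In the Remission Phase, whose group difference the rule used, the medians were 0.23 and 0.14. No member had all allergic horses above or all below the healthy horses in the Clinical Phase (0 of 65), which 15 of the 10639 genes had (0.141%).

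Across all genes tested in the Clinical Phase, 0 of 13315 (0%) differed between allergic and healthy horses at an adjusted p under 0.05 by edgeR (quasi-likelihood), and 0 of the 65 members. At an unadjusted p under 0.05 it marked 444 genes (3.33%) and 5 members, each with a higher level in the allergic horses, as 258 of the 444 genes had. Without A7 it marked 3 members and 4.23% of genes, and without H4 8 members and 2.74% of genes. DESeq2 called 9 of 13301 genes (0.0677%) and 0 of the 64 members it tested. The 5 members had log2 fold changes from 0.89 to 2.96. The Clinical Phase values were used in r, and the choice by r carries group differences from the Remission Phase over, so nothing is read from the members' counts or their direction.

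The largest of these fold changes was that of ENSECAG00000039768, named after its values were seen. In the Clinical Phase the healthy horses H1, H2, H4, H6 and H7 were at 0.352, 0.549, 0.298, 0.376 and 0.891 CPM, and the allergic horses ran from 0 to 9.12 with a median of 2. A3, A5 and A7 were at 9.12, 6.71 and 7.15 CPM and had also been the 3 highest in the Remission Phase, at 6.92, 6.01 and 7.09, while in the Clinical Phase A1 and A4 were below all healthy horses. The log2 fold change was 2.96 (SE 0.97, n = 7 and 5), while the difference in mean log2(CPM + 4) was 0.66. The gene was near the floor in several horses. In the Clinical Phase the healthy libraries held 5 to 14 counts, A1 held 0 and A4 held 4. The smallest unadjusted p was that of ENSECAG00000013037, at 27.5, 9.16, 11.6, 24.5 and 8.4 CPM in the healthy horses and 21.3 to 39.3 with a median of 28.2 in the allergic horses. H1 and H6 were within the allergic range, and the log2 fold change was 0.89 (SE 0.29).

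The fitted fold changes of ENSECAG00000035318 and ENSECAG00000028173 between the groups depended on H4, the horse through which their groups overlapped. Their Clinical Phase log2 fold changes in edgeR were 1.94 (SE 0.92) and 1.90 (SE 1.02) with all 12 horses, and 5.39 (SE 0.20) and 6.33 (SE 0.20) without H4. The differences in mean log2(CPM + 4) moved less and were 3.87 and 3.60 with all horses and 4.91 and 4.58 without H4. Without H4 the test called 6 genes in all, and the members called and the members whose groups did not overlap both went from 0 to 2, while 37 of 10626 genes (0.348%) had groups that did not overlap. These members were named for their Remission Phase difference and chosen for levels kept between phases, so those counts follow from the choice and nothing is read from them.

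The rule left out genes that moved 1 way in every horse between the phases, which removed 1 gene. The mean difference between the phases had a median size of 0.10 log2 units in the members and 0.14 in all genes, and ran from -0.32 to 0.30 in the members. By edgeR (quasi-likelihood, adjusted p under 0.05) 2276 of 13597 genes differed (16.7%), with 1 of the 65 members among them, and without H2 the count of genes was 1223. That fit did not pair the libraries of a horse, so the spread between horses, larger in the members than in all genes, entered its error. For ENSECAG00000035318 the SE of the log2 change was 0.70 in that fit and 0.11 with the horse as a block. With the horse as a block edgeR called 2160 genes (15.9%) and 5 members, 4 higher and 1 lower in the Clinical Phase. DESeq2, also without the pairing, called 2567 of 13592 genes (18.9%) and 1 of the 62 members it tested. The rule used this contrast, and nothing is read from the members' counts.

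The member called without the block was ENSECAG00000012095, a gene of low level. In the Remission Phase it was at 2.16, 1.58, 1.68, 1.76 and 1.7 CPM in H1, H2, H4, H6 and H7 and from 1.08 to 2.93 in the allergic horses, median 1.73. In the Clinical Phase the healthy horses were at 3.62, 2.34, 1.97, 3.32 and 3.44 CPM and the allergic horses ran from 0.537 to 6.31 with a median of 3.41. The level was higher in the Clinical Phase in 11 horses and lower in A3, with a log2 fold change of 0.79 (SE 0.27). With a horse left out, the number of members called was 1 without A3, A5 or H4 and 0 without any other. A7 was the highest and A3 the lowest horse in both phases. Blocked by horse, the lower member was ENSECAG00000011459, with a log2 change of -0.75 (SE 0.18).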

How the data were processed

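Per the labels and the study's methods, the authors trimmed reads with Trim Galore 0.6.0, aligned them to EquCab3.0 with STAR 2.7.0e and deposited raw counts per gene. The libraries were made with a directional kit. The counting tool, the strand setting used in counting and the annotation release were given in none of the sources read here. Reads shared by near-identical or overlapping genes were not tested. CPM came from total counts times TMM factors (edgeR 4.0.16, R 4.3.3) over genes with a mean of at least 1 CPM. Comparisons used edgeR's quasi-likelihood test on genes that reached 0.5 CPM in any 1 library, with Benjamini-Hochberg adjustment over all genes, and DESeq2 1.42.0 as an alternative. The tests were tried on simulated data, but no outcome of that trial is given here and nothing is drawn from it. The members and lists were chosen with earlier results of these data known. Horses were paired by header code: deviations of the 2 libraries of a horse from their group means had a mean r of 0.23 over genes (range -0.15 to 0.472), against -0.0208 between horses. The value was over 0.1 in 9 of the 12 horses and not in A6, H2 and H6, and 6 horses were closest to their own other library.

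Members were named by rule, by identifier: the 2 with the largest SD of the horse means for each kind of widest gap, and the 2 largest and 2 smallest allergic minus healthy differences in the Remission Phase. No p is given for a single member chosen this way, since the rule carries its Remission Phase levels into the Clinical Phase.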

Additional observations from a re-analysis of the deposited data

Results flagged for a closer look

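Some values lay far from the others of their group of 5 or 7 samples: 13 of the 32 checks of the 8 named members and 0 of the 8 checks of library totals and TMM factors, where chance marks about 1 in 20 groups. The named members had been chosen for horses that stand apart and the same horses were measured in both phases, so these values are not independent of that choice. The TMM factor of the A6 Remission Phase library, 0.728, was the lowest of the 24 libraries but was not marked within its group of 7. H4 was apart from the other healthy horses for 4 members. It was high for ENSECAG00000035318, at 447 CPM in remission and 477 in the Clinical Phase, and for ENSECAG00000028173, at 128 and 172 CPM. It was low for ENSECAG00000009142, at 292 and 240 CPM, and for ENSECAG00000023677, at 5.16 and 3.16 CPM. Elsewhere H7 was low for ENSECAG00000020358, at 635 and 599 CPM, and A5 was high for ENSECAG00000038583, at 468 and 467 CPM. These 6 members showed the same horse apart in both phases. For ENSECAG00000028173 A6 was low in the Remission Phase, at 56.4 CPM where the next allergic horse was at 105, and not in the Clinical Phase.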

How the results depend on the processing

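The number of genes with an r of at least 0.9 was 67, and 160 with no minimum of the mean CPM and 34 by rank correlation (Spearman). That rank correlation kept 23 of the 65 members at 0.9, also through the whole rule, and leaving out the 2 horses farthest from the median kept 27. A pseudocount of 1, RLE factors, a mean of at least 5 CPM, thinning to the lowest total and, chosen after seeing the data, TMM factors over all listed genes moved none of these counts by over 1.5 times. Without each horse in turn, 64 to 98 genes reached 0.9, 54 to 61 members reached it and 51 to 61 members were picked again by the whole rule, while 62 to 65 members had a level step (64 with all horses). Between allergic and healthy horses in the Clinical Phase, 0 genes were called, against 9 with DESeq2, 4 with no filter and 0 to 6 without each horse (6 without H4, 1 without A1, A2, A3 or H7). Members called were 0, and 0 to 2 without each horse (2 without H4, the members named for their group difference). Members at an unadjusted p under 0.05 were 5 (3.33% of genes), and 3 (without A7; 4.23%) to 8 (without H4; 2.74%). Members whose groups did not overlap were 0, and 2 without H4 (0.348% of genes). Between the phases 2276 genes were called, and 1223 (without H2) to 2366 without each horse. Members called there were 1, against 0 with no filter, 5 with the horse as a block and 0 to 1 without each horse (1 without A3, A5 or H4). The cause of these changes was not tested, beyond the fewer samples. Levels under a few CPM are compressed by the added 4, and counts of 3 or fewer cannot be told from 0.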
